A study of Mus musculus with 4 samples.

Results

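The AP-1 transcription factors are encoded by the FOS and JUN families and by a few related genes, and 10 of these were examined here: *Fos*, *Fosb*, *Fosl1*, *Fosl2*, *Jun*, *Junb*, *Jund*, *Atf3*, *Batf* and *Jdp2*. They were taken by name out of 55413 annotated mouse genes, by a rule that uses no measured value. Earlier results of these data were known when they were chosen. Their loci were defined as the gene in GENCODE vM21 with 50 kb on either side. The measurement was chromatin accessibility by ATAC-seq, in which the enzyme Tn5 cuts and tags open DNA, and the tagged fragments pile up into a peak wherever chromatin is accessible. Nuclei came from aortic tissue of mice at an age of 60 days (P60), without sorting of cell types, and the labels name no drug treatment. The control mice were Col3a1+/+ and the VEDS mice Col3a1G938D/+, a heterozygous model of vascular Ehlers-Danlos syndrome with an altered type III collagen gene. For each genotype, 1 female library and 1 male library were made, with tissue of 2 mice pooled in each, so that a genotype has 2 libraries. A difference between the 2 libraries of a genotype therefore cannot be told apart from a difference between the sexes, and a 2 against 2 exact permutation test cannot give a two-sided p below 0.333. No test between genotypes was made.

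The deposited peak lists differed widely in length, from 504 peaks (VEDS female) and 1236 peaks (control male) to 21176 peaks (control female) and 41444 peaks (VEDS male). The median peak summit rested on 14 fragments for control females, 7 for control males, 6 for VEDS females and 22 for VEDS males. The lengths follow neither genotype nor sex, and the absence of a peak from a short list was not read as closed chromatin. The control female and VEDS male lists are called the long lists here. Promoters of all 6 smooth muscle markers had a peak in both long lists. Among 5 endothelial markers 1 had a control female peak and 3 a VEDS male peak, and the same counts were 3 and 2 of 5 fibroblast markers, 0 and 1 of 4 adipocyte markers, 0 and 1 of 5 immune markers, and 1 and 2 of 5 striated muscle markers. None of these marker promoters had a peak in the short lists. In tissue with mixed cell types, fewer cells of a type and lower accessibility per cell cannot be told apart.

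AP-1 is a dimer of leucine zipper proteins. FOS proteins pair with JUN proteins, whereas JUN proteins can also pair with each other, and the dimers bind the 7-letter AP-1 site TGAGTCA, which reads TGACTCA on the other strand. ATF proteins prefer the related CRE, TGACGTCA, which CREB also binds. Several of the genes are immediate-early genes, which are induced within minutes by serum, stretch or injury. Induction of some of these uses serum response factor (SRF) at the CArG box. This box is CC followed by 6 letters that are each A or T and then GG. In smooth muscle, SRF also controls contractile genes through CArG boxes. The 3 sequences were searched on both strands.

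The sequences that carry the main observations are shown first. They are the stretches under the accessible regions of *Fos*, *Fosb*, *Junb*, *Jun* and *Atf3*, from the GRCm38 reference and on the strand of the gene. Positions are counted from the start of the first numbered coding transcript of each gene, with negative numbers upstream. The capitals in the *Fos*, *Fosb* and *Junb* sequences mark a CArG box and the first 6 letters of the CRE, TGACGT. The capitals in *Jun* mark TGACATCA, a variant of the CRE through which JUN is known to act on its own promoter, and those in *Atf3* a CArG box with 1 inner letter that is not A or T.
Fos promoter, positions −330 to −50 (chr12:85473560-85473840, + strand): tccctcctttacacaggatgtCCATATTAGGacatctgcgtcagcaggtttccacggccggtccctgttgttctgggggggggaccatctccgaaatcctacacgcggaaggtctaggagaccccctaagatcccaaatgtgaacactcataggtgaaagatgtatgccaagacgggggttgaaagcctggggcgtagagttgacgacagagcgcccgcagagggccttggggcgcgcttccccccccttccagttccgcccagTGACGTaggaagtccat
Fos downstream element, positions 12134 to 12284 (chr12:85486024-85486174, + strand): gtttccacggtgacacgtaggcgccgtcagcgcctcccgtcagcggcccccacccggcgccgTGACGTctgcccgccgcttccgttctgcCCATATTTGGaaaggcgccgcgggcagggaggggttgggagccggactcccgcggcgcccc
Fosb promoter, positions −330 to −70 (chr7:19310121-19310381, − strand): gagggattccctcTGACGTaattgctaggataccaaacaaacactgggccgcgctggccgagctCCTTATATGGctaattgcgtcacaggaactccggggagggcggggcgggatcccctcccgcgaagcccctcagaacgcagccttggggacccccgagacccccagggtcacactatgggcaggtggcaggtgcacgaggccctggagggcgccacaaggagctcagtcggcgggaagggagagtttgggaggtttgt
Junb downstream element, positions 2025 to 2135 (chr8:84976583-84976693, − strand): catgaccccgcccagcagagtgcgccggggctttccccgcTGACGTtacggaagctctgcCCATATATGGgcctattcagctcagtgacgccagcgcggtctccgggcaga
Jun promoter, positions −94 to −1 (chr4:95052223-95052316, − strand): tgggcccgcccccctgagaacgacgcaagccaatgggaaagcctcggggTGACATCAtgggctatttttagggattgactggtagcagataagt
Atf3 promoter, positions −300 to −150 (chr1:191183490-191183640, − strand): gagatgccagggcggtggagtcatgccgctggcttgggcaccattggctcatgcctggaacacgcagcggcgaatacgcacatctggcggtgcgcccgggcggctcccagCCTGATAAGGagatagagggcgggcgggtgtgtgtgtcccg

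The 10 loci held 62 peaks of the control female list, which is 0.293% of that list (95% Wilson interval 0.228 to 0.375), and 98 peaks of the VEDS male list, or 0.236% (0.194 to 0.288). In the control male list there were 2 peaks, or 0.162% (0.0444 to 0.588). In the VEDS female list there were 0 of 504, which allows a share of up to 0.595%. The limits for the short lists thus include the shares of the long lists. Intervals and limits cover counting error only. A locus held a median of 6.5 control female peaks (range 3 to 12) and 10 VEDS male peaks (range 5 to 21). Loci of all 21938 protein-coding genes, taken in the same way, had medians of 2 and 4. The richest was *Fosb*, with 12 and 21 peaks, in a locus that holds the starts of 6 other coding genes. The *Jun* locus, with no other coding gene start, held 4 and 5.

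**Figure D1:**
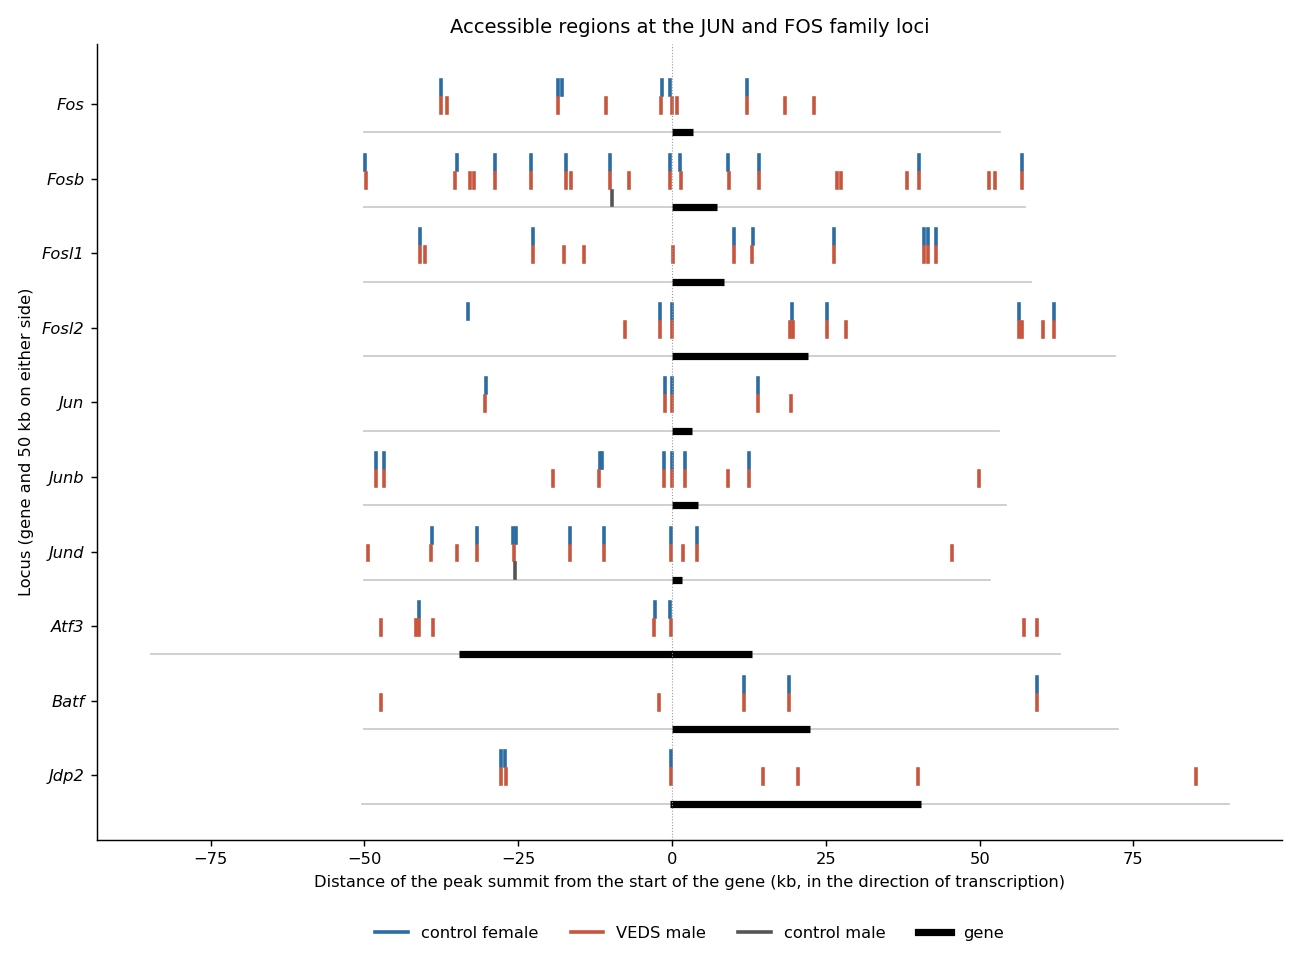
Peaks at the 10 loci by the distance of their summit from the start of the gene (x axis, kb, in the direction of transcription), with 1 row per gene (y axis). Each tick is a peak of the control female (blue), VEDS male (red) or control male (grey) list, the black bar is the gene and the grey line is the locus, and the VEDS female list held 0 peaks there. Most blue ticks have a red tick below them, and the 2 grey ticks fall at *Fosb* and *Jund*.

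Both peaks of the control male list overlapped a peak in each long list, although the summits did not coincide. One (chr7:19319768-19320070) lay 9.80 kb upstream of *Fosb*, over part of the intergenic peak that ranked highest of the *Fosb* locus in both long lists, where it was ranked 2269 and 4326. Ranks here and in what follows are by −log10 q within a list, with 1 the highest, and the control female value is given first. The other (chr8:70673303-70673605) lay 25.6 kb upstream of *Jund* at the start of *Lsm4*, a splicing factor gene, where the highest peaks of the *Jund* locus were found with ranks of 1396 and 1685. At *Fosb* the control male summit was at −9796, outside the peaks of both long lists, which had summits at −10043. At *Jund* it was at −25553, and the highest peaks had summits at −25768 and −25657. Both control male peaks rested on 7 fragments. Neither control male peak had a −log10 q of 5, so that the 2 were lost under that stricter threshold.

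Promoter peaks, counted within 3 kb of any annotated start of the gene, were found for 8 of the 10 genes in the control female list and for 10 of 10 in the VEDS male list. Over all protein-coding genes the control female share was 47.4% and the VEDS male share 58.5%. The short lists had 0 of 10 each, against 1.56% of all genes for control males and 1.49% for VEDS females. The control female list lacked *Fosl1* and *Batf*. With a peak required over the start itself, 5 and 8 genes remained in the long lists.

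**Figure D2:**
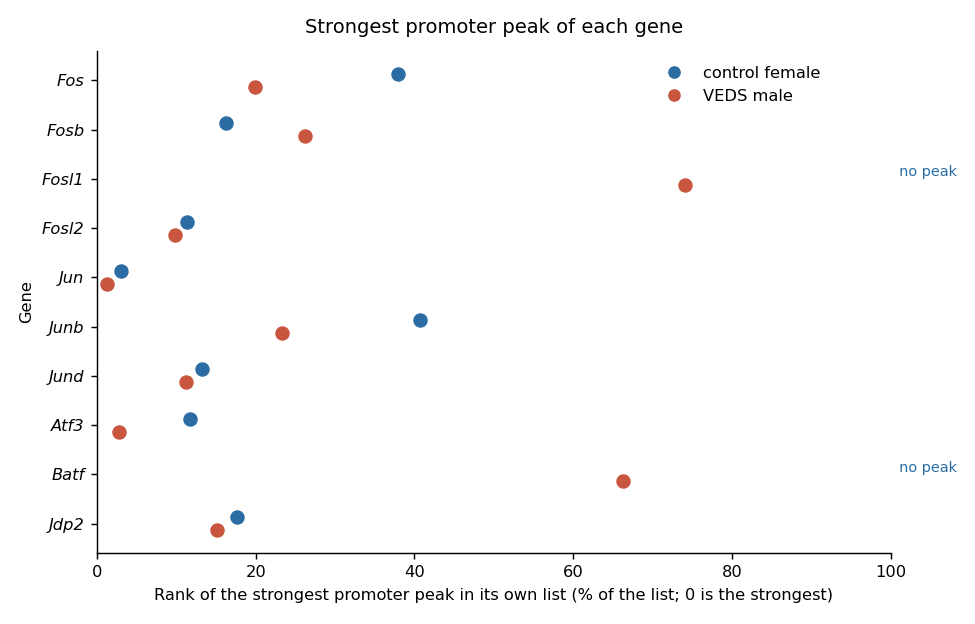
Rank of the strongest promoter peak of each gene (y axis) within its own list, as a percentage of the length of the list (x axis, 0 is the strongest), in the control female (blue) and VEDS male (red) libraries. *Jun* lies nearest to 0 in both, at 3.0% and 1.22%, and *Fosl1* and *Batf* have no point in the control female list. The 2 *Junb* points are different regions, at 2065 in the control female list and at −5 in the VEDS male list. The *Fosb* points are the exonic peak at 1304 and 1390.

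Among the FOS family, *Fos* encodes the founding member and responds fastest to stimuli. Its promoter peak in the control female list spanned chr12:85473491-85473881, had a summit at −319, rested on 23 fragments and was ranked 8029 of 21176. In the VEDS male list it spanned chr12:85473469-85474002, had a summit at −65, rested on 65 fragments and was ranked 8241 of 41444. The 2 summits lay nearest to different elements of the sequence shown above. The control female summit was 14 bp from the centre of the CArG box at −309, and the VEDS male summit was 2 bp from the centre of the CRE-like match at −66. Both peaks contained both elements. With 1 library each and 23 fragments in the shallower one, whether the summits truly differ was not tested.

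A further *Fos* promoter peak around −1629 and −1870 was also present in both long lists, and the VEDS male list alone had a peak in the first intron at 779. The highest peak of the *Fos* locus was intergenic at 18.5 kb upstream in both lists, with 34 and 88 fragments and ranks of 2547 and 2297. It contained none of the 3 sequences in its window. The element downstream of *Fos* shown above had summits at 12172 and 12123, 22 and 59 fragments, and ranks of 5060 and 5086. Its CArG box at 12224 and its CRE-like match at 12196 lay within the peak of both lists. At −10860 a CArG box was found under a VEDS male peak of 16 fragments (rank 27690) that had no counterpart in the control female list.

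*Fosb*, another immediate-early gene, had promoter peaks in 2 places. Upstream, peaks with summits at −288 and −350 contained the CArG box at −266 and a CRE-like match at −317. They had 20 fragments and rank 9437 in the control female list and 47 fragments and rank 11437 in the VEDS male list. Inside the gene, an exonic peak at 1304 and 1390, within 3 kb of further annotated starts, was ranked higher in each list, at 3444 with 30 fragments and 10838 with 49 fragments. Farther upstream of *Fosb*, an AP-1 site at −17303 and a full CRE at −28827 were found in both long lists, between exons of the neighboring gene *D830036C21Rik*.

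*Fosl2*, which encodes FRA2, had the strongest promoter peak of the FOS family by −log10 q in both long lists, ranked 2393 with 39 fragments and 4052 with 89 fragments. By fold enrichment, the *Fosb* promoter peak was higher in the control female list, at 8.72 against 8.16. The *Fosl2* peaks were wide, at 794 and 1048 bp (chr5:32135215-32136008 and chr5:32135000-32136047), with summits at 4 and 10 in the first exon. An AP-1 site followed at position 53 in the 5′ untranslated region. *Fosl1*, which encodes FRA1, was at the other end. It had no promoter peak in the control female list and a weak one in the VEDS male list, with 15 fragments and rank 30721, although its locus held 8 and 12 peaks. Most of those lay at other genes, such as *Cfl1*, which encodes the actin regulator cofilin, and *Mus81*, near which the highest peak of the locus was found in both lists.

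Among the JUN family, *Jun* had the promoter peak of highest rank by −log10 q among all 10 genes in both lists. By fold enrichment, the *Jdp2* promoter was higher in the control female list, at 10.4. The peak was ranked 635 of 21176 with 51 fragments and a fold enrichment of 10.1 over the local background in the control female list (chr4:95052118-95052586). In the VEDS male list it was ranked 505 of 41444 with 121 fragments and a fold enrichment of 11.3 (chr4:95052113-95052686). The summits at −65 and −64 were 24 and 22 bp from the centre of TGACATCA at −45. A peak at −1081 and −1138 lay on an exon of *Junos*, the antisense transcript that starts 688 bp from the start of *Jun*. The strict AP-1 site, the full CRE and the CArG box were all absent from the summit windows of the whole *Jun* locus.

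*Junb* had 3 promoter peaks in each long list. At the start itself, both summits were at −5, with 21 fragments and rank 11914 in the control female list and 60 fragments and rank 9649 in the VEDS male list. Upstream, peaks at −1382 and −1379 held a CArG box at −1450, with 16 fragments and rank 17423 in the control female list and 51 fragments and rank 13097 in the VEDS male list. The former lies in the lowest of 5 rank groups of its list. The element shown above lay beyond the end of the coding transcript, between it and a noncoding *Junb* transcript, with summits at 2065 and 2091 (24 and 57 fragments, ranks 8623 and 10714). Its CArG box at 2085 was 24 and 2 bp from these summits, and its CRE-like match at 2065 was 2 and 24 bp from them. The highest peak of the locus was 11.8 kb upstream at *Hook2*, which encodes a microtubule linker protein, with ranks of 1372 and 1101 and a further CArG box at −11675 in the windows of both lists. This box lay within the called peak of the VEDS male list and outside that of the control female list.

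*Jund*, which is usually expressed at a steady level, was the only one of the 10 genes with a full CRE in a promoter window. Its promoter peak was ranked 2794 with 41 fragments in the control female list (chr8:70698470-70699020) and 4665 with 86 fragments in the VEDS male list (chr8:70698377-70699101). The CRE at −214 was 68 and 32 bp from the summits at −142 and −179. RefSeq starts the *Jund* transcript farther upstream than GENCODE, so that the CRE lies in the 5′ untranslated region there. AP-1 sites flanked the gene at −16618 and 4008 in both long lists. The downstream one lay in a peak with its summit 481 bp from the start of another gene, *Iqcn*, in both lists. The upstream one lay in a strong intergenic peak ranked 2351 and 1894.

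**Figure D3:**
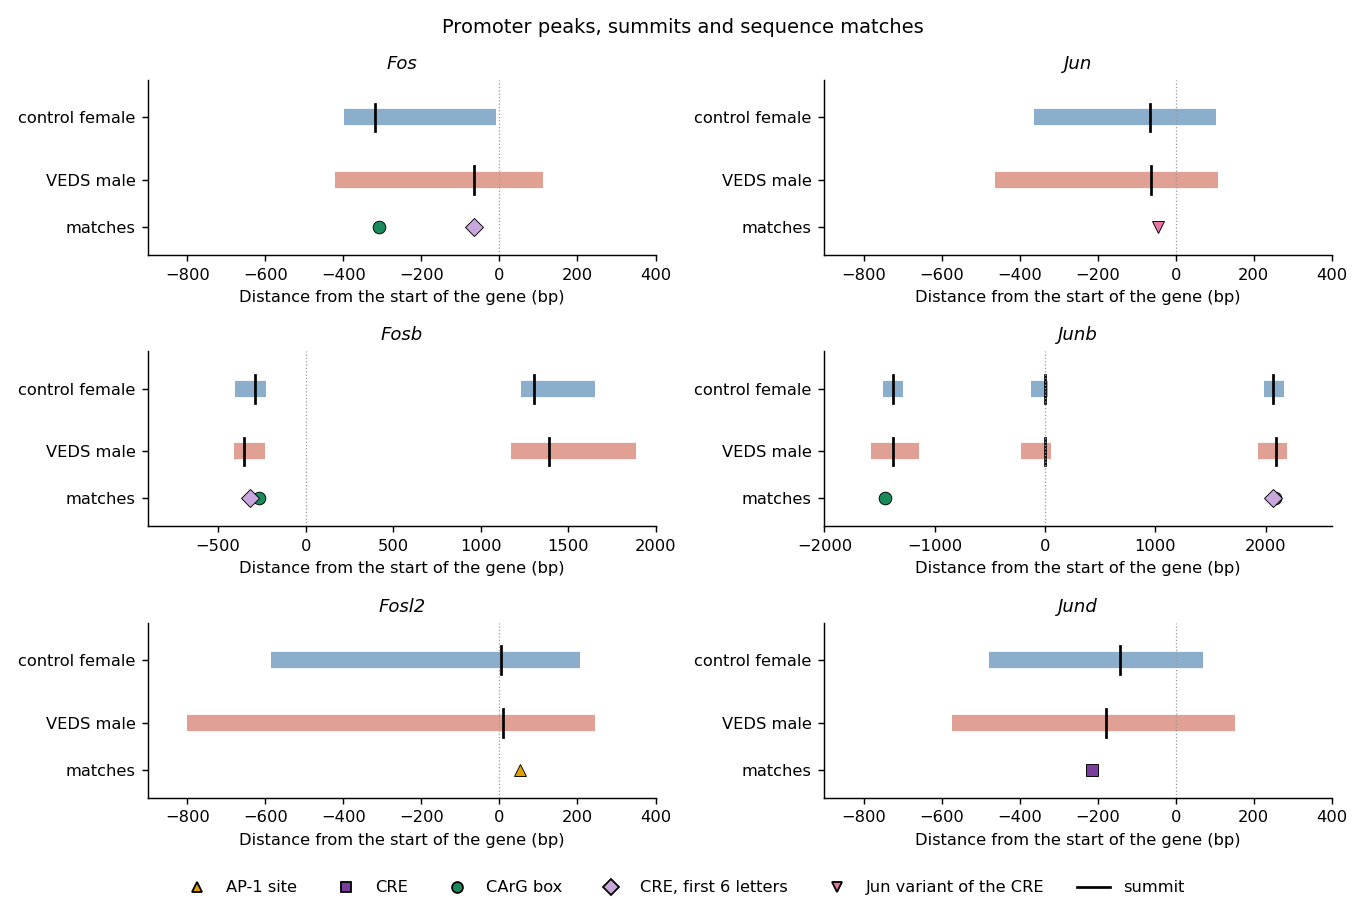
Peaks around the start of 6 genes (x axis, bp from the start in the direction of transcription) in the control female (blue) and VEDS male (red) lists, with a black line at each summit and symbols for the sequence matches. The *Fos* summits at −319 and −65 lie on different symbols, and the *Jun* summits at −65 and −64 coincide.

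*Atf3*, *Batf* and *Jdp2* encode smaller leucine zipper partners of JUN, of which ATF3 is stress-induced and JDP2 mostly represses. *Atf3* had the second highest promoter peak of the 10 genes in the VEDS male list, ranked 1129 with 107 fragments (chr1:191183181-191183936), and was ranked 2476 with 37 fragments in the control female list (chr1:191183241-191183748). The summits at −241 and −275 belong to the internal start. The far upstream start of *Atf3* had no peak within 3 kb. No strict match was found in the summit windows of this promoter, and the CArG-like match at −190 had 1 letter outside A and T. This match was 56 bp (VEDS male) and 90 bp (control female) from the summits. A CArG box with 1 inner letter left free was in 9.98% of all 32851 promoters taken from RefSeq, so such matches are common. *Jdp2* had a promoter peak with both summits at −117, ranked 3742 with 23 fragments and 6242 with 50 fragments, close to the start of the bidirectional noncoding RNA *Gm47863*. *Batf*, best known from lymphocytes, had no promoter peak in the control female list and 1 of 15 fragments at −2069 in the VEDS male list, ranked 27483. The highest peak of its locus was within the gene at 11728 and 11681, ranked 8787 and 6887.

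Of the 62 control female peaks at the loci, 60 overlapped a VEDS male peak by at least 1 bp (96.8%, 95% Wilson interval 89.0 to 99.1), and over the whole list the share was 95%. The exceptions were a peak upstream of *Fosl2* and a peak at *Fibp* in the *Fosl1* locus, next to which the VEDS male list had a peak without overlap. In the other direction, an overlap with the control female list was found for 57 of 98 VEDS male peaks (58.2%, 48.3 to 67.4), and for 47.6% of the whole VEDS male list. When the VEDS male list was divided by rank into 5 groups of equal size, the overlap held for 28 of 28 locus peaks in the highest group, 23 of 25, 6 of 14, 0 of 16 and 0 of 15 in the lowest. In the same groups the whole list had shares of 97.6%, 75.1%, 39.6%, 18.1% and 7.54%. Rank and depth move with the peaks that were found in the VEDS male list alone, and their part in the difference was not tested.

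Merged over the libraries, the loci held 100 regions. Of these, 57 were found in both long lists (2 of them also in the control male list), 41 in the VEDS male list alone and 2 in the control female list alone. The *Jun* locus had 4 of 5 regions in both long lists, *Fosb* 12 of 21, *Fos* 5 of 10, *Junb* 7 of 10, *Jund* 7 of 11, *Fosl1* 7 of 13, *Fosl2* 6 of 12, *Batf* 3 of 5, *Jdp2* 3 of 7 and *Atf3* 3 of 8. The *Batf* and *Jdp2* loci overlap, so that the VEDS male peaks chr12:85639371-85639522 and chr12:85684482-85684970 are counted at both. Peaks within 3 kb of any annotated start made up 66.1% of the locus peaks in the control female list (53.7 to 76.7), compared with 56.7% of the whole list, and 60.2% in the VEDS male list (50.3 to 69.3), compared with 46.7%. Several of the loci lie among other coding genes, with 11 other coding genes that start at the *Fosl1* locus, 9 at *Junb*, 6 at *Fosb* and 5 at *Jund*, and many of their peaks belong to these neighbors.

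In 300-bp windows at the summits, an AP-1 site was found in 9 of 62 control female locus windows (14.5%, 7.83 to 25.3) and in 16 of 98 VEDS male windows (16.3%, 10.3 to 24.9). Over all windows of each list, 11.6% of control female windows and 11.6% of VEDS male windows had one. The full CRE was in 2 of 62 (3.23%, 0.889 to 11.02) and 3 of 98 (3.06%, 1.05 to 8.62), and in 2.59% and 1.77% of all windows. For the AP-1 site and the CRE, the share of all windows lay within the interval at the loci. The CArG box was in 7 of 62 (11.3%, 5.58 to 21.5) and 7 of 98 (7.14%, 3.50 to 14.0), and in 3.02% and 3.09% of all windows. Both intervals for the CArG box lay above the share of the whole list, narrowly so for VEDS males (3.50% against 3.09%). The genes were chosen with earlier results of these data known, so that this describes the loci and enrichment was not tested. The windows of the 2 lists are mostly the same regions, and those of 1 locus share a neighborhood, so that they are not independent.

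**Figure D4:**
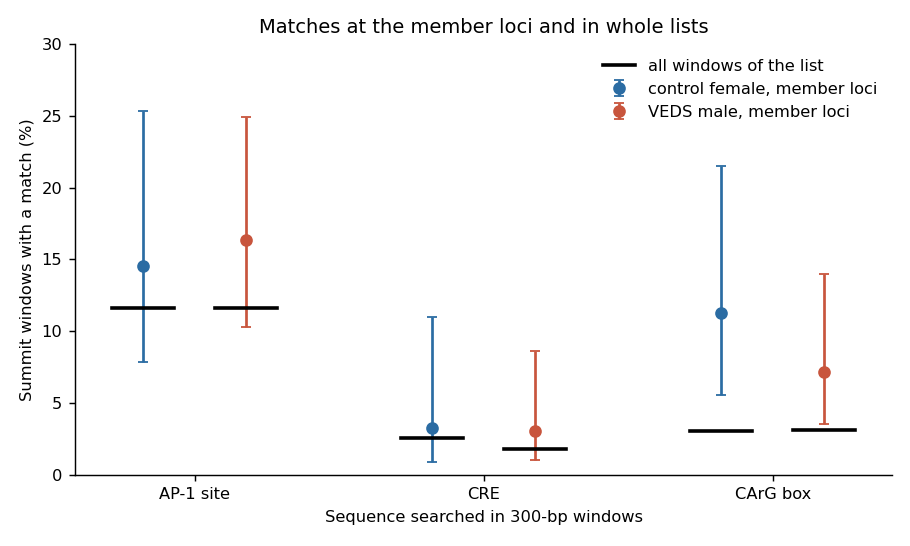
Share of 300-bp summit windows with each sequence (y axis, %) for the AP-1 site, the CRE and the CArG box (x axis), at the 10 loci in the control female (blue, 62 windows) and VEDS male (red, 98 windows) lists, with 95% Wilson intervals as error bars and the share over all windows of the list as a black line. The line lies below the error bars for the CArG box and within them for the AP-1 site and the CRE.

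The matches came from few places. The CArG boxes were 9 distinct sites at 4 loci, *Fos*, *Fosb*, *Junb* and *Fosl1*, and 7 of the 9 were in windows of both long lists. The AP-1 sites were 18 distinct sites at 8 loci, all but *Fos* and *Jun*, and 7 of the 18 were in both. The other AP-1 sites were in the VEDS male windows alone (9) or in the control female windows alone (2). All 9 of the former were in windows of VEDS male peaks with no control female overlap, and for 2 of them, at *Fosl2* and *Jdp2*, the site lay outside the called peak. Of all 98 VEDS male locus peaks, 57 did overlap a control female peak, as did 47.6% of the whole list. Ranks of the peaks with these 9 sites ran from 26167 to 40206 of 41444, apart from 11618 at *Fosl1* and 11654 at *Fosb* −32117. No VEDS male locus peak in the lowest 2 of 5 rank groups had an overlap. The full CRE was found at 3 sites at *Fosb* and *Jund*, 2 of them in both. The median distance between summit and nearest AP-1 site was 48 bp at the loci and 43 bp over the list for control females, and 36.5 and 39 bp for VEDS males. For the CArG box it was 28 and 57.5 bp, and 66 and 52.5 bp. For the CRE, with only 2 and 3 windows at the loci, it was 85 and 34.5 bp, and 50 and 29.5 bp.

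The sites found in windows of both long lists and not shown above are printed to show their flanks, with the match in capitals, 10 reference bases on either side and the strand of the named gene. The coordinates are those of the match.
Fosl2 AP-1 site, position 53 (chr5:32135854-32135860): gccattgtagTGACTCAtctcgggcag
Fosl2 AP-1 site, position 56433 (chr5:32192234-32192240): cgtgagcctcTGACTCAtctcgatgtc
Fosb AP-1 site, position −17303 (chr7:19327348-19327354): gatgacgtaaTGAGTCAtcagcgggga
Jund AP-1 site, position −16618 (chr8:70682331-70682337): caccaggcggTGACTCAcgccctccgt
Jund AP-1 site, position 4008 (chr8:70702957-70702963): ggagcatctaTGACTCAcactgggtat
Atf3 AP-1 site, position −41109 (chr1:191224443-191224449): cccgactgcgTGAGTCAtcagccccgc
Batf AP-1 site, position 59254 (chr12:85745923-85745929): cgaggctgtaTGAGTCActtcgttgcc
Fosb CRE, position −28827 (chr7:19338871-19338878): tggtgtaggaTGACGTCAcgtctggctg
Jund CRE, position −214 (chr8:70698735-70698742): cccacccccaTGACGTCAacccacaatg
Junb CArG box, position −1450 (chr8:84980159-84980168): cttcctgtgcCCTAATATGGgtgctgggga
Junb CArG box, position −11675 (chr8:84990384-84990393): tcctcaagatCCTTTTAAGGcggatctacc
Fosl1 CArG box, position 41560 (chr19:5489107-5489116): cctcaagcagCCTTATAAGGagcctgcagc
Fosl1 CArG box, position 41618 (chr19:5489165-5489174): aggcttatgcCCTAATAAGGacatctaggg

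The AP-1 site at *Fosl2* position 53 was the only strict AP-1 site in a summit window at a promoter of the 10 genes, and it was 52 and 46 bp from the summits. The site at *Atf3* −41109 lay at the start of *D730003I15Rik*, and that at *Batf* 59254 at *Flvcr2*, so that neither is placed at the promoter of the AP-1 gene itself. The pair of CArG boxes of the *Fosl1* locus lay in 1 peak near *Mus81* and *Cfl1*, ranked 5656 and 6049.

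After these sequences were seen, peaks with a CArG box and TGACGT in the same peak were counted. In the control female list, 4 of 62 locus peaks had both, and 0.246% of all peaks did. In the VEDS male list, 4 of 98 had both, and 0.297% of all peaks did. Since these loci prompted the count, it describes them and supports nothing further. The 4 were the same regions in both lists, namely the *Fos* promoter, the element downstream of *Fos*, the *Fosb* promoter and the element downstream of *Junb*. The variant TGACATCA, likewise chosen after the *Jun* sequence was seen, was found in 3 of 62 and 4 of 98 locus windows (4.84% and 4.08%), and in 2.48% and 2.53% of all windows.

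RefSeq promoter sequences of GRCm38.p6, from 250 bases before to 50 bases after the start, were available here for 9 of the 10 genes, in 11 promoters. None of the 11 held a strict AP-1 site, a full CRE or a CArG box, which were found in 5.20%, 1.79% and 1.63% of all 32851 promoters. The first 6 letters of the CRE were in promoters of 4 genes, *Fos*, *Atf3*, *Batf* and *Jdp2*, and in 7.51% of all promoters. Some of the starts differ from those of GENCODE, and the CArG boxes of *Fos* and *Fosb* lie farther upstream than this window reaches.

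Genes that act with AP-1 were examined through lists of other leucine zipper partners, of upstream kinases and serum response regulators, and of known targets. Of 16 other partners, 14 had a control female promoter peak and 15 a VEDS male one, against the shares of 47.4% and 58.5% over all genes given above. *Batf3* had none in either, and *Atf1* none in the control female list. In the short lists 0 and 1 of the 16 had a peak. Of 17 kinases and regulators, 14 and 16 had one in the long lists, against the same shares of 47.4% and 58.5% over all genes. The brain-enriched kinase gene *Mapk10* had none in either, whereas *Srf* itself had one in both. Of the ternary complex factors, which bind beside SRF, *Elk1* and *Elk4* had one in both long lists and *Elk3* in the VEDS male list alone. The control male list had 1 of the 17 (*Mkl1*, a coactivator of SRF) and the VEDS female list 0. Of 15 known AP-1 target genes, 3 had a promoter peak in the control female list (*Mmp14*, *Hmox1* and *Vim*) and 9 in the VEDS male list. The matrix protease genes *Mmp3*, *Mmp9* and *Mmp13*, the protease inhibitor gene *Timp1*, the chemokine gene *Ccl2* and the osteopontin gene *Spp1* had none in either long list, and the short lists had 0 of the 15 each. Over all genes the shares were 47.4% in the control female list and 58.5% in the VEDS male list. The long lists differ in length, and the difference between 3 and 9 was not tested.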

How the data were processed

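ATAC-seq libraries of aortic nuclei (P60, 4 libraries) were made with a single-cell kit and analyzed in aggregate. The authors aligned reads to mm10 (GRCm38), removed duplicates by barcode, corrected Tn5 cut sites, called narrow peaks per library with MACS2 and removed blacklisted regions. The aligner and the peak threshold are not given in the sources used here. In the deposited lists, the score is 10 times the −log10 q without decimals, the fold enrichment is a ratio of fragments at the summit to local background, and the −log10 p-value and −log10 q-value were likewise deposited by the authors. These were used only within a list, for ranks, thresholds and description.

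The 10 genes, the lists of other genes and the tests were chosen with earlier results of these data known. Samples were grouped by genotype and sex from their labels, and shares have 95% Wilson intervals. Loci were genes of GENCODE vM21 with 50 kb on either side. A peak was a promoter peak if its edge was within 3 kb of any start of the gene. Sequences were read from the GRCm38 reference in 300-bp summit windows. Genes were named by rule: the 10 genes, the nearest starts of locus peaks with a match or of highest rank, neighbors starting within 3 kb, and list genes without promoter peaks in the long lists. Other list genes (*Srf*, *Elk1*, *Elk3*, *Elk4*, *Mkl1*, *Mmp14*, *Hmox1*, *Vim*, *Fibp*, *Cfl1*, *Atf1*) were named after their values were seen. *Mkl1* and *Mkl2* were matched through synonyms in RefSeq. A further item of the target list is not reported here.

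The fragments at a summit were recovered as the integer for which the fold enrichment (pseudocount 1) and the Poisson −log10 p both match the deposited values, which was possible for 99.3% to 99.9% of peaks. Tested on simulated data, this recovered 100% of 500 numbers, and the sequence search 100% of 300 planted matches. The alternatives tried were stricter −log10 q thresholds, equal list size, other flanks, promoter distances, windows and consensus sequences, a larger overlap, and leaving out each library. The tools were Python 3.11.15, pysam 0.24.0, scipy 1.17.1, numpy 2.4.6, pandas 2.3.3 and matplotlib 3.10.9.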

Additional observations from a re-analysis of the deposited data

Results flagged for a closer look

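The number of peaks at the 10 loci changed in opposite directions in the sexes. VEDS minus control was −62 peaks in females and 96 in males. For the genes with a promoter peak, VEDS minus control was −8 in females and 10 in males. Each value rests on 1 library per genotype and sex, the difference between the sexes was not tested, and the lengths of the whole lists differ in the same direction.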

How the results depend on the processing

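Of 101 alternatives, 69 kept a count within 1.5 times, or the overlap within the interval, of the value reported, and 32 moved it. The 69 include counts of 0 that stayed 0 under stricter settings, where they could not rise. These were the locus peaks of the VEDS female list and the genes with a promoter peak in both short lists. At equal list size, with the 504 highest peaks of each list, every count that had been above 0 became 0: locus peaks, genes with a promoter peak, and windows with each sequence. With 0 in every list, no comparison between lists can be made at that size. The VEDS male *Jun* promoter peak, at rank 505, fell just outside it. With a −log10 q of at least 10, locus peaks fell to 32 in the control female list, and VEDS male windows with an AP-1 site to 9; the 2 control male peaks became 0 at a −log10 q of 5 and of 10. With a flank of 25 kb, locus peaks were 39 (control female), 1 (control male) and 62 (VEDS male), and CRE windows 1 in each long list. With a flank of 100 kb they were 97 (control female), 153 (VEDS male) and 1 (VEDS female), and control female AP-1 windows 14. A peak over the start itself was found for 5 genes in the control female list. In 200-bp windows the CRE was in 1 control female window. With relaxed sequences, CRE windows became 16 and 19 and CArG windows 16 and 19 in the long lists (control female first). No share over all windows is given for the relaxed forms, so these counts cannot be read as an excess. Among all 32851 RefSeq promoters, the relaxed CRE was in 7.51% and the relaxed CArG box in 9.98%. Leaving out libraries, genes with a promoter peak ranged from 0 to 8 in control and from 0 to 10 in VEDS, with 0 without the control female and without the VEDS male library, respectively.

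The overlap of VEDS male locus peaks with control female peaks ranged from 48.5% to 61.4%. The short lists, with medians of 6 and 7 fragments, cannot show whether these loci were less accessible.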
